A study of Mus musculus with 2 samples.

Results

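The 5 genes described here encode subunits of the phagocyte NADPH oxidase: Cybb, Cyba, Ncf1, Ncf4 and Rac2. They were taken by name from the 31053 genes listed in each library, whatever their values. Blood was drawn from male C57BLKs/J mice aged 21 weeks, either db/db or wild type (wt). The db/db genotype disrupts the leptin receptor and is a model of obesity with type 2 diabetes. Each group was 1 droplet library of peripheral immune cells, made from 200 µl of blood of 3 mice after lysis of red cells. Mice of a group were pooled and cells carry no label of their mouse, so no difference below has a replicate check and no p-value is given. All intervals are 95% and cover counting error only.

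The oxidase transfers electrons from NADPH across a membrane to oxygen and makes superoxide, which phagocytes use against microbes. Cybb encodes the catalytic membrane chain and Cyba its membrane partner, and the pair form the cytochrome. Ncf1 encodes the organiser that carries the cytosolic complex to the cytochrome after phosphorylation. Ncf4 encodes a subunit that binds a phosphoinositide of the phagosome membrane, and Rac2 encodes the small GTPase that the assembled enzyme needs. Inherited loss of several of these subunits causes chronic granulomatous disease in humans. Monocytes, neutrophils and B cells are known to carry the enzyme.

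In the GENCODE M21 annotation of GRCm38, Cybb lies on chromosome X at 9435252 to 9487771, Cyba on chromosome 8 at 122424776 to 122432930 and Ncf1 on chromosome 5 at 134220053 to 134229625, all on the minus strand. Ncf4 lies on chromosome 15 at 78244801 to 78262580 on the plus strand. Rac2 lies on the same chromosome at 78559167 to 78572783 on the minus strand, 296587 bases away, with 10 protein-coding genes between them. Cyba overlaps Gm20388, which had 0 UMIs in both libraries, and Ncf1 overlaps Gtf2ird2 on the opposite strand, which had 88 UMIs in db/db and 102 UMIs in wt. RefSeq promoters of GRCm38.p6, from 250 bases before to 50 bases after the start that RefSeq annotates, were matched for 3 of the 5 genes. For Cybb this start lies inside the span that GENCODE gives the gene, not at its 5′ end. Cybb, Ncf1 and Cyba are the 3 that were matched, and all of them are shown. Capitals mark GAGGAA, the core of sites bound by PU.1, searched on both strands as GAGGAA or TTCCTC.
Cybb promoter: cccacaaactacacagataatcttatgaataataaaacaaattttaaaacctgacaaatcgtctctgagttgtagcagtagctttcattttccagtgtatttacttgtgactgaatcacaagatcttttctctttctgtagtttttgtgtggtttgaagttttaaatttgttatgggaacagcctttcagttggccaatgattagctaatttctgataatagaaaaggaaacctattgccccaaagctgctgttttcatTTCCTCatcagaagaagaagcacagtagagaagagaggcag
Ncf1 promoter: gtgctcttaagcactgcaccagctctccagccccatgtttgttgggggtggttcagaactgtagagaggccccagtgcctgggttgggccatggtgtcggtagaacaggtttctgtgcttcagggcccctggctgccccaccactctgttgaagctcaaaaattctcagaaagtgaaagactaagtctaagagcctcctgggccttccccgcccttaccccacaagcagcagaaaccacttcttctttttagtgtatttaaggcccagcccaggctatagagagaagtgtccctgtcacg
Cyba promoter: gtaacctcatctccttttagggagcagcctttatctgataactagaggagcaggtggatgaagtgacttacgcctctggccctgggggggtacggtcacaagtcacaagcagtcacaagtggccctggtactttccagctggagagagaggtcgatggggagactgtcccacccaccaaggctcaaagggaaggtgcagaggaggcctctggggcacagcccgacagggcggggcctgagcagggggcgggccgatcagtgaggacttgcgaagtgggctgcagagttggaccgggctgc
These windows lie at chrX:9469275-9469574, chr5:134229576-134229875 and chr8:122432891-122433190, and each is written on the strand of its gene. The Cybb window had 1 match, on the minus strand relative to the printed sequence, and the Ncf1 and Cyba windows had 0. The same letters were present in 28.3% of 32851 promoters. GC content was 35.3% for Cybb, 54.0% for Ncf1 and 60.7% for Cyba, against a median of 52.7%, and 3.98% of promoters had a lower GC content than Cybb.

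The db/db library kept 6109 barcodes and the wt library 5727 after filters of 200 to 6000 genes and under 10% mitochondrial UMIs. Kept barcodes held 20388332 UMIs in db/db and 18013804 UMIs in wt, with a median of 2523 UMIs per barcode in db/db and 2562 in wt. In the deposited libraries 91 barcode sequences occurred in both, 11 of them among kept barcodes. Haemoglobin genes took 40.5% of kept UMIs in db/db and 36.7% in wt. The median share of Gm42418, a gene overlapping ribosomal RNA, was 0.533% in db/db and 2.64% in wt. Clusters named from marker genes held 356 neutrophils, 368 monocytes, 2010 B cells, 531 T cells and 55 NK cells in db/db. The wt clusters held 164 neutrophils, 123 monocytes, 2494 B cells, 718 T cells and 104 NK cells. The clusters were made without the 5 genes among the variable genes. The neutrophil class had UMIs of 13 of 13 neutrophil markers in each library, the monocyte class of 15 of 15 monocyte markers and the B cell class of 12 of 12 B cell markers. The clusters were named by these same markers, so the counts are no separate check of the names. Nor do they set classes apart, as neutrophils also had UMIs of 12 of 12 B cell and 11 of 11 platelet markers in each library.

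Cybb, the catalytic chain, was high in monocytes, intermediate in B cells and low in neutrophils. Monocytes had 1439 CPM (UMIs per 1e+06 UMIs of the class) in db/db (interval 1385 to 1495) and 1715 CPM in wt (1610 to 1825). B cells had 271 CPM in db/db and 237 CPM in wt. Neutrophils had 46.8 CPM in db/db (32.2 to 65.8), from 33 UMIs, and 32.4 CPM in wt (16.7 to 56.6), from 12 UMIs. Erythroid barcodes, whose mature cells should lack the oxidase, had 44.4 CPM in db/db and 35.6 CPM in wt, with B cell markers summing to 2696 CPM in db/db and 2329 CPM in wt. Monocytes stood apart from B cells, and B cells from every other class, in both libraries. Neutrophils overlapped erythroid barcodes in both.

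**Figure D1:**
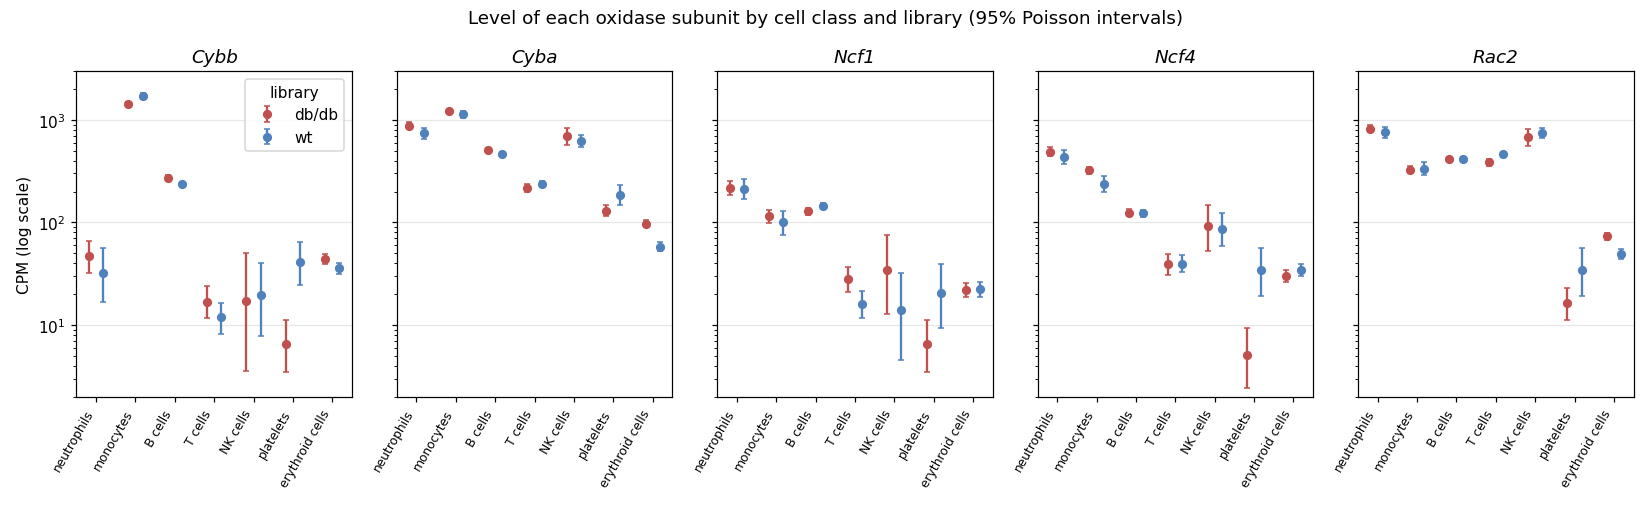
CPM of each of the 5 subunit genes (log axis) in 7 cell classes, with db/db in red left of wt in blue and bars for 95% Poisson intervals. Cybb peaks in monocytes, at 1439 CPM in db/db and 1715 CPM in wt, while its neutrophil points lie at 46.8 CPM in db/db and 32.4 CPM in wt.

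Haemoglobin filled much of the erythroid sums, so Cybb was also set against UMIs outside haemoglobin. On that scale neutrophils had 64.1 CPM in db/db and 39.0 CPM in wt. Erythroid barcodes had 182 CPM in db/db and 161 CPM in wt, above the neutrophil intervals. T cells had 21.1 CPM in db/db (14.4 to 29.8) and 13.96 CPM in wt (9.67 to 19.5), below the neutrophil intervals. Cybb was seen in 17 of 356 db/db neutrophils and 12 of 164 wt neutrophils, and 1 db/db cell held 10 of the 33 UMIs. Thinning every cell to 500 UMIs outside haemoglobin gave 1.42% of db/db neutrophils and 1.24% of wt neutrophils with a Cybb UMI, against 4.78% of db/db and 7.32% of wt neutrophils unthinned. The thinned share was 6.82% in db/db and 5.44% in wt erythroid barcodes, whose median depths outside haemoglobin were 832 UMIs in db/db and 647 UMIs in wt, against 1365 UMIs in db/db and 1812.5 UMIs in wt neutrophils. It was 1.15% in db/db and 0.561% in wt T cells, with intervals that overlapped those of neutrophils. Monocytes had 56.8% in db/db and 59.0% in wt at the same thinned depth, and B cells had 12.5% in db/db and 11.1% in wt. Cells with at least 3 markers of another lineage made up 129 of 356 neutrophils in db/db and 65 of 164 in wt. Without them, Cybb had 18 UMIs in db/db neutrophils and 3 UMIs in wt neutrophils. Per all UMIs, haemoglobin included, that was 54.6 CPM (32.4 to 86.4) in db/db and 17.8 CPM (3.67 to 52.1) in wt. Such cells were 903 of 1375 erythroid barcodes in db/db and 958 of 1682 in wt. Without them, erythroid Cybb per all UMIs was 2.43 CPM in db/db (0.976 to 5.00) and 7.03 CPM in wt (4.51 to 10.5). With them it was 44.4 CPM in db/db and 35.6 CPM in wt on that scale. The erythroid values without them lay below the neutrophil interval in db/db and overlapped it in wt. Their order outside haemoglobin was not computed.

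**Figure D2:**
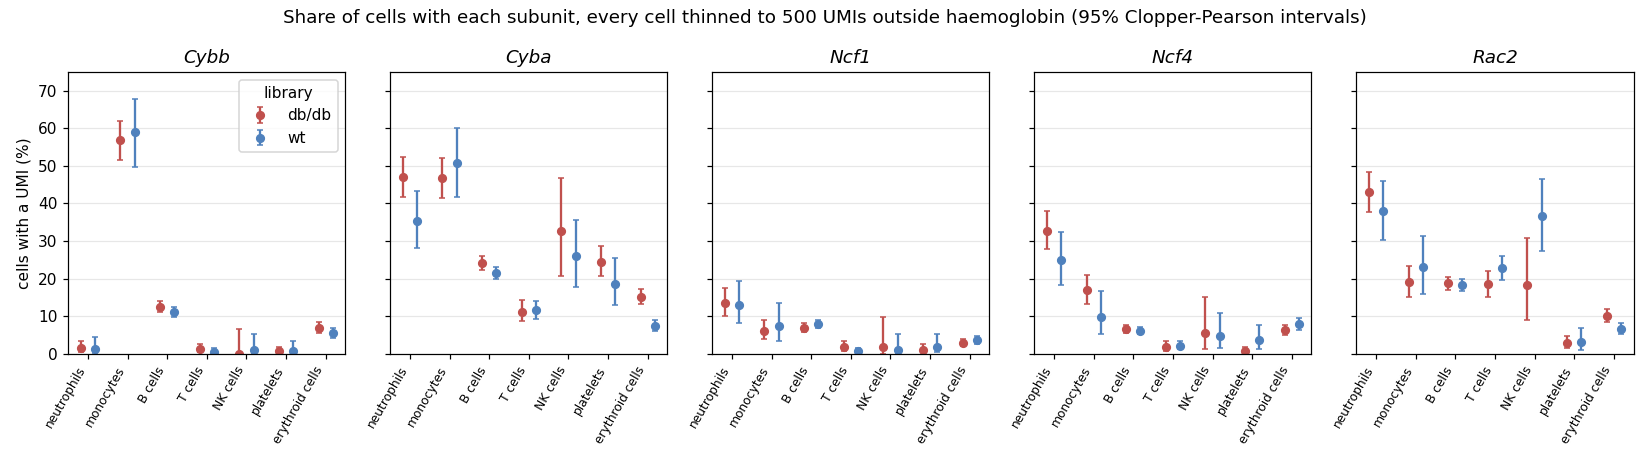
Share of cells with at least 1 UMI of each subunit after each cell was thinned to 500 UMIs outside haemoglobin, with db/db in red left of wt in blue and bars for 95% Clopper-Pearson intervals. Cybb was seen in 56.8% of db/db and 59.0% of wt monocytes, and in 1.42% of db/db and 1.24% of wt neutrophils.

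Cyba, the membrane partner, was highest in monocytes among the 7 classes plotted. Monocytes had 1225 CPM in db/db and 1128 CPM in wt. Neutrophils had 874 CPM in db/db and 740 CPM in wt, and their intervals overlapped those of NK cells, at 690 CPM in db/db and 628 CPM in wt. B cells had 507 CPM in db/db and 465 CPM in wt, and T cells 216 CPM in db/db and 237 CPM in wt. Neutrophils thus had many Cyba UMIs beside few UMIs of the catalytic chain.

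Among the 7 classes plotted, Ncf1 and Ncf4 were highest in neutrophils. Ncf1, the organiser, had 217 CPM in db/db neutrophils (184 to 254) and 213 CPM in wt neutrophils (169 to 266). The few basophils, 9 in db/db and 6 in wt, had 316 CPM in db/db (127 to 651) and 908 CPM in wt (392 to 1790), from 7 UMIs in db/db and 8 in wt. B cells had 128 CPM in db/db and 144 CPM in wt, and monocytes 114 CPM in db/db and 100 CPM in wt, so the intervals of B cells and monocytes overlapped in db/db but not in wt. Ncf4, the phosphoinositide-binding subunit, had 490 CPM in db/db and 432 CPM in wt neutrophils. Monocytes had 321 CPM of Ncf4 in db/db and 238 CPM in wt, and B cells 124 CPM in db/db and 123 CPM in wt. T cells were low for both genes, with 28.0 CPM of Ncf1 in db/db and 16.01 CPM in wt, and 39.2 CPM of Ncf4 in db/db and 39.7 CPM in wt.

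Rac2, the small GTPase of blood cells, was spread over lymphocytes as well. Neutrophils had 820 CPM in db/db and 754 CPM in wt. NK cells, with 678 CPM in db/db and 745 CPM in wt, overlapped them. B cells had 419 CPM in db/db and 418 CPM in wt, and T cells 384 CPM in db/db and 462 CPM in wt. Monocytes had 326 CPM in db/db and 335 CPM in wt, the lowest Rac2 level of the 5 leukocyte classes in both libraries.

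The share of Cybb in the mix of subunit transcripts differed more between monocytes, B cells and neutrophils than between the libraries. Platelets, which the figure of the mix leaves out, were less alike between libraries, with Cyba at 79.1% in db/db and 58.7% in wt. Cybb made up 42.0% of the UMIs of the 5 genes in db/db monocytes and 48.8% in wt monocytes. It made up 18.7% in db/db and 17.1% in wt B cells, and 1.91% in db/db and 1.49% in wt neutrophils. Rac2 took 56.1% in db/db and 60.3% in wt T cells. Ncf4 took 20% in db/db and 19.9% in wt neutrophils, against 9.36% in db/db and 6.77% in wt monocytes. These shares count 3′ UMIs, 1 per captured transcript, and capture can differ between genes.

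**Figure D3:**
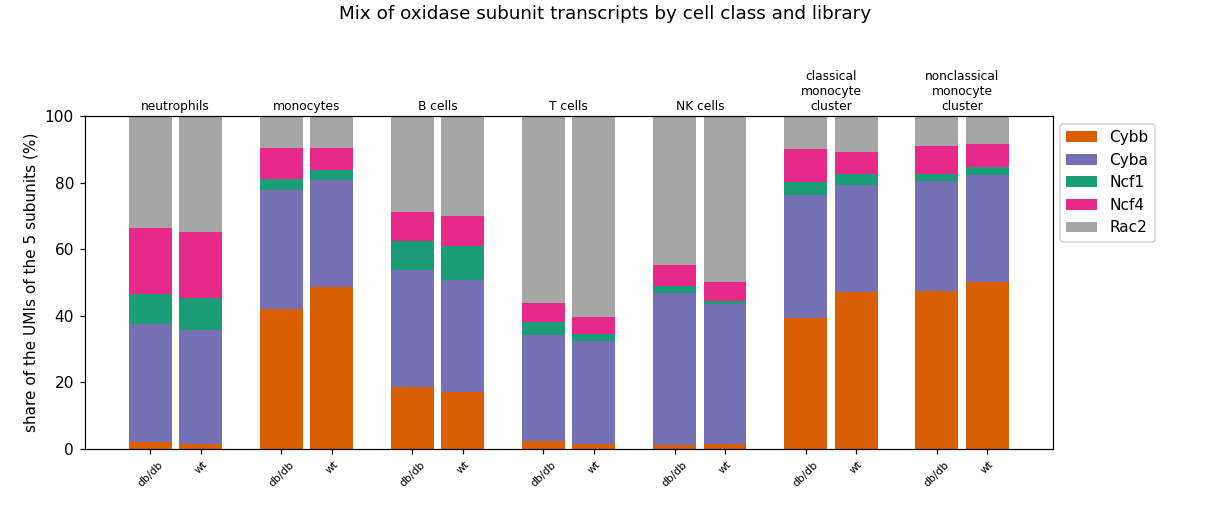
Share of the UMIs of the 5 subunit genes held by each gene, stacked to 100%, in 5 classes and 2 monocyte clusters, with db/db left of wt in each pair. Cybb fills 42.0% of the db/db and 48.8% of the wt monocyte bar, and 1.91% of the db/db and 1.49% of the wt neutrophil bar.

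At the thinned depth, at least 3 of the 5 genes were seen in 16.03% of db/db and 15.6% of wt monocytes. Neutrophils had 12.3% in db/db (9.01 to 16.1) and 6.83% in wt (3.46 to 11.9), and B cells 1.44% in db/db and 1.94% in wt. In db/db monocytes, Cybb and Cyba were seen together in 27.4% of cells, and the product of their separate shares was 26.5%. The same pair was seen together in 32.8% of wt monocytes, with a product of 29.99%.

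Genes with the most similar levels over 14 points, 7 classes in each of the 2 libraries, were found among 4918 candidates by Pearson's r of log2(CPM + 10). They share libraries and depth, so r is a description only. Cybb was closest to BC028528 (r = 0.986), Tifa and Pld4, and Cyba to Rhoa (r = 0.984), Rab7 and Arpc1b. Ncf1 was closest to Bmp2k (r = 0.959) and Notch2, Ncf4 to Reep3 (r = 0.977) and Map3k5, and Rac2 to Pptc7 (r = 0.994). Among the members themselves, Ncf1 and Ncf4 were most alike (r = 0.902) and Cybb and Rac2 least (r = 0.178).

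Between genotypes, subunit UMIs made up a slightly larger share of neutrophil UMIs in db/db than in wt. Per neutrophil they numbered 4.85 in db/db and 4.90 in wt, at median depths of 1474 UMIs in db/db and 1892.5 UMIs in wt. The 5 genes together had 2448 CPM in db/db and 2171 CPM in wt neutrophils, a ratio of 1.13 (1.04 to 1.23). Cyba had a ratio of 1.18 (1.02 to 1.37). The intervals of Cybb, Ncf1, Ncf4 and Rac2 included 1. None of the 5 genes was past 1.5-fold in either direction in neutrophils, where 4.48% of 4087 measured genes were higher and 17.3% lower by that fold. The median log2 ratio of those genes was -0.19, and all 5 subunits lay above it. Haemoglobin took 26.9% of UMIs in db/db and 17.0% in wt neutrophils. Per UMIs outside haemoglobin the sum was 3348 CPM in db/db (3192 to 3510) and 2616 CPM in wt (2438 to 2803). Rac2 was 1122 CPM in db/db (1032 to 1217) and 908 CPM in wt (804 to 1021) on that scale. Cyba intervals were apart too, while those of Cybb, Ncf1 and Ncf4 overlapped. The median log2 ratio of measured genes was then -0.03. The part of haemoglobin was not tested beyond that. B cell markers summed to 613 CPM in db/db and 1110 CPM in wt neutrophils, with 12 of 12 seen in each library, and their part was not tested.

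**Figure D4:**
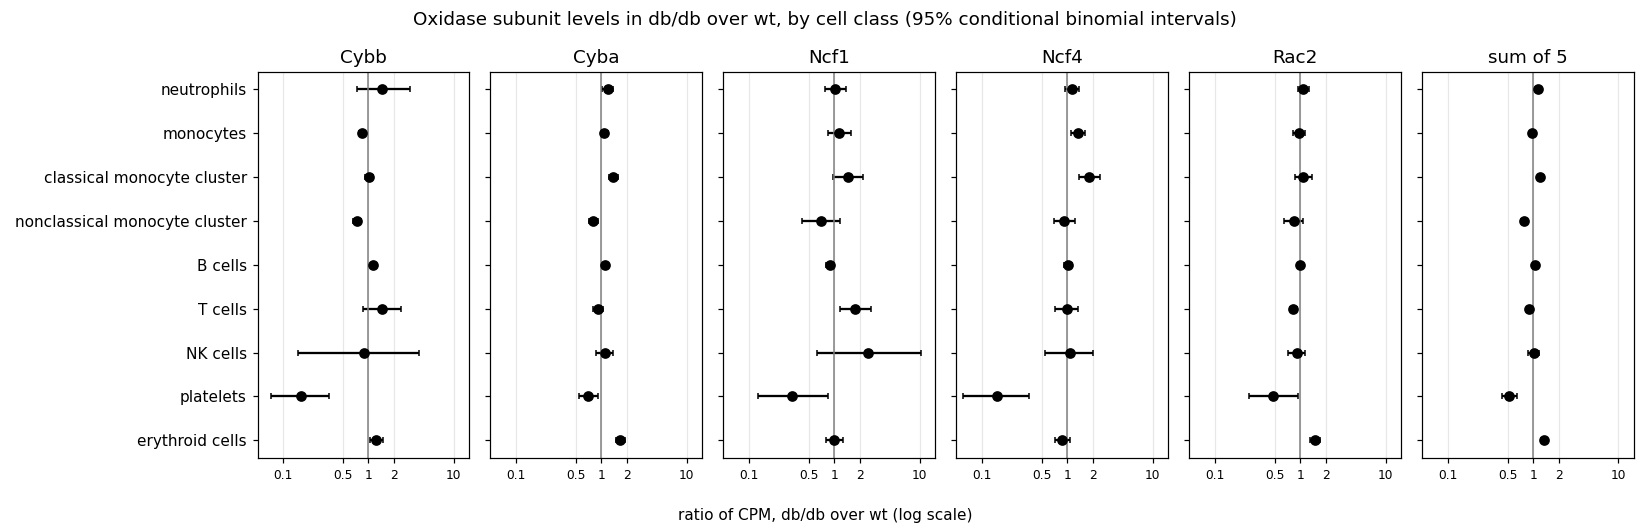
Ratio of CPM in db/db over wt (log axis) for each subunit and their sum in 7 classes and 2 monocyte clusters, with bars for 95% conditional binomial intervals. The sum lies at 1.20 in the classical monocyte cluster and at 0.777 in the nonclassical one.

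In monocytes the sum of the 5 genes was 3425 CPM in db/db and 3516 CPM in wt, a ratio of 0.974 (0.926 to 1.02). Cybb was lower in db/db, with a ratio of 0.839 (0.780 to 0.904), and Ncf4 was higher, with a ratio of 1.35 (1.12 to 1.63). None of the 5 was past 1.5-fold in monocytes, where 4.70% of 7780 measured genes were higher and 6.34% lower. The class was made of 2 clusters, chosen for comparison after the data were seen. One led with Ly6c2, Ccr2 and F13a1, markers of classical monocytes, and held 191 cells in db/db and 52 in wt. The other led with Ace, Treml4 and Cd300e, markers of nonclassical monocytes, and held 177 cells in db/db and 71 in wt.

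The 2 monocyte clusters differed in opposite directions. In the classical cluster the sum was 3437 CPM in db/db and 2854 CPM in wt, a ratio of 1.20 (1.12 to 1.29). Cyba had 1275 CPM in db/db and 920 CPM in wt there, a ratio of 1.39 (1.22 to 1.57), and Ncf4 had 342 CPM in db/db and 189 CPM in wt, a ratio of 1.81 (1.38 to 2.40). Cybb had 1351 CPM in db/db and 1343 CPM in wt, a ratio of 1.01 (0.905 to 1.12). Ncf4 was the 1 subunit past 1.5-fold in this cluster, where 9.20% of 6749 measured genes were higher and 8.79% lower by that fold. In the nonclassical cluster the sum was 3403 CPM in db/db and 4381 CPM in wt, a ratio of 0.777 (0.722 to 0.836). Cybb had 1611 CPM in db/db and 2200 CPM in wt there, a ratio of 0.732 (0.659 to 0.813), and Cyba had a ratio of 0.807 (0.709 to 0.920). None of the 5 was past 1.5-fold in the nonclassical cluster, where 7.13% of 4884 measured genes were higher and 11.7% lower.

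Markers of other cells also differed between the libraries, in either direction. Neutrophil markers summed to 784 CPM in db/db and 161 CPM in wt cells of the classical cluster, with 13 of 13 seen in db/db and 6 of 13 in wt, where Cxcr2, Retnlg and Ly6g were at 0. B cell markers summed to 397 CPM in db/db and 1072 CPM in wt there, with 12 of 12 seen in each. In the nonclassical cluster, NK cell markers summed to 6.43 CPM in db/db and 585 CPM in wt, with 3 of 11 seen in db/db and 9 of 11 in wt, and monocyte markers to 12293 CPM in db/db and 15821 CPM in wt. Platelet markers summed to 556 CPM in db/db and 1014 CPM in wt in the classical cluster, with 0 of 11 higher in db/db. They summed to 699 CPM in db/db and 199 CPM in wt in the nonclassical cluster, with 11 of 11 higher. T cell markers had 26.5 CPM in db/db and 122 CPM in wt of the classical cluster. In the nonclassical cluster they had 96.4 CPM in db/db and 15.9 CPM in wt. Without cells that held markers of several lineages, the log2 ratio of the sum was 0.09 in the classical cluster and -0.22 in the nonclassical cluster, against 0.27 in the classical and -0.36 in the nonclassical cluster with them. What part the other cells' RNA had beyond that was not tested.

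B cells of the libraries were close. The sum was 1450 CPM in db/db and 1386 CPM in wt, a ratio of 1.05 (1.01 to 1.08), and its direction turned under 2 alternative settings given in the closing section. Platelet markers summed to 226 CPM in db/db and 103 CPM in wt B cells, with 11 of 11 seen in each and 11 higher in db/db, and B cell markers to 14944 CPM in db/db and 17183 CPM in wt. Their part was not tested. Cybb had a ratio of 1.15 (1.06 to 1.24), Cyba 1.09 (1.03 to 1.15) and Ncf1 0.889 (0.798 to 0.989). None of the 5 was past 1.5-fold, as were 0.869% of 10016 measured genes upward and 1.24% downward. Cluster 0 was the largest B cell cluster in both libraries, but the clusters were shared unevenly. Cluster 0 had 1816 cells in db/db and 1073 in wt, and cluster 1 had 118 in db/db and 979 in wt. Gm42418 was among the leading genes of cluster 1, with 2.07% of its UMIs in db/db and 5.06% in wt. Within cluster 0, Cyba alone had an interval without 1, with a ratio of 1.10 (1.02 to 1.18).

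B cell clusters also differed from each other within a library. In cluster 8, which led with Vpreb3, Iglc1 and Ms4a1, Cybb had 168 CPM in db/db and 133 CPM in wt. In cluster 0 Cybb had 274 CPM in db/db and 257 CPM in wt. Ncf1 went the other way, with 182 CPM in db/db and 184 CPM in wt of cluster 8, against 125 CPM in db/db and 131 CPM in wt of cluster 0. The cluster intervals were apart for Cybb in both libraries and for Ncf1 in wt, and overlapped for Ncf1 in db/db. An unnamed cluster of 32 db/db and 47 wt cells led with interferon-response genes such as Ifit3 and Slfn5 and carried all 12 B cell markers. It had 669 CPM of Cybb in db/db (508 to 865) and 471 CPM in wt (359 to 608), above the B cell class in each library. Monocyte markers there summed to 11.5 CPM in db/db and 79.9 CPM in wt, with 1 of 15 seen in db/db and 7 of 15 in wt. The B cell class had 51.1 CPM of them in db/db and 62.0 CPM in wt. Csf1r, Cd68 and Fcgr1 were at 0 in both libraries of the cluster, and the part of monocyte RNA in its Cybb level was not tested.

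In T cells the sum was 685 CPM in db/db and 767 CPM in wt, a ratio of 0.893 (0.833 to 0.957), with Rac2 at 0.831 (0.758 to 0.911). Ncf1 had a ratio of 1.75 (1.16 to 2.66) from 53 UMIs in db/db and 46 UMIs in wt. Without cells that held markers of several lineages, Ncf1 was 15.9 CPM in db/db (9.08 to 25.8) and 12.2 CPM in wt (7.67 to 18.5), with overlapping intervals. Of the 2 T cell clusters, cluster 4 had a ratio of the sum of 0.762 (0.684 to 0.847), with Rac2 at 0.700, while cluster 10, which led with Cd8b1, had 0.985 (0.898 to 1.08), with Rac2 at 0.921 (0.815 to 1.04). Haemoglobin took 31.5% of cluster 4 UMIs in db/db and 18.6% in wt. Per UMIs outside haemoglobin the cluster 4 sum was 802 CPM in db/db (733 to 875) and 885 CPM in wt (834 to 938). Cluster 10 had 890 CPM in db/db (830 to 955) and 927 CPM in wt (872 to 984) on that scale. All T cells had 854 CPM in db/db (808 to 902) and 905 CPM in wt (867 to 943). The intervals of the 2 libraries overlapped each time. Platelet markers summed to 521 CPM in db/db and 108 CPM in wt T cells, with 11 of 11 seen in db/db and 10 of 11 in wt, and 11 higher in db/db. The part of haemoglobin or of platelet RNA in the sum was not tested. With the pseudocount of 10 CPM none of the 5 was past 1.5-fold in T cells, where 1.39% of 8868 measured genes were higher and 1.35% lower. Neutrophil markers summed to 86.8 CPM in db/db and 30.3 CPM in wt T cells, with 12 of 13 seen in db/db and 8 of 13 in wt, and their part in the Ncf1 value was not tested. In NK cells every interval included 1, and none of the 3 subunits with 20 UMIs or more was past 1.5-fold, where 13.5% of 3765 measured genes were higher and 10.5% lower.

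Platelet and erythroid barcodes showed larger ratios that depended on the settings. The sum was 165 CPM in db/db and 315 CPM in wt platelets, a ratio of 0.523 (0.427 to 0.643), and 4 of the 5 genes were lower by 1.5-fold, where 58.4% of 2526 measured genes were lower and 1.46% higher. Haemoglobin took 76.6% of platelet UMIs in db/db and 59.6% in wt. In erythroid barcodes the sum was 267 CPM in db/db and 199 CPM in wt, a ratio of 1.34 (1.25 to 1.44), and Cyba was the 1 gene higher by 1.5-fold, where 3.94% of 8301 measured genes were higher and 0.819% lower. Both directions reversed under several settings, listed in the closing section.

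Over all kept barcodes Cybb was 236 CPM in db/db and 160 CPM in wt, a ratio of 1.47 (1.40 to 1.54). Monocytes supplied 54.7% of Cybb UMIs in db/db and 34.4% in wt, and B cells 25.7% in db/db and 47.9% in wt. Monocytes were 6.02% of kept barcodes in db/db and 2.15% in wt. Neutrophils supplied 0.686% of Cybb UMIs in db/db and 0.415% in wt, against 16.8% of Ncf4 UMIs in db/db and 10.7% in wt.

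**Figure D5:**
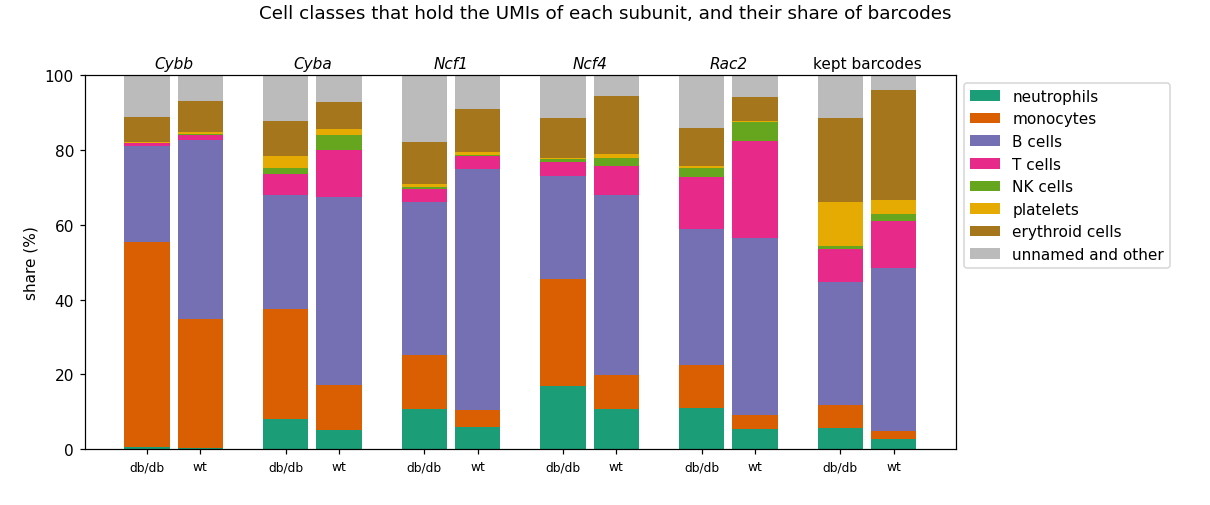
Share of the UMIs of each subunit that came from each cell class, with the share of kept barcodes at the right, and db/db left of wt in each pair. Monocytes hold 54.7% of Cybb UMIs in db/db and 34.4% in wt, while they are 6.02% of barcodes in db/db and 2.15% in wt.

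Other genes of the oxidase pathway were read from lists. Of 6 measured assembly partners in neutrophils, 0 were past 1.5-fold in either direction and 0 had a log2 ratio above 0. Their median was -0.41, against -0.19 for all measured genes. Among them, Rac1, the widely expressed relative of Rac2, had 333 CPM in db/db and 416 CPM in wt neutrophils, a ratio of 0.802 (0.652 to 0.989). Arhgdib, which holds Rac proteins inactive in the cytosol, had 575 CPM in db/db and 786 CPM in wt neutrophils, a ratio of 0.731 (0.627 to 0.853). Among 11 measured kinases and exchange factors in neutrophils 1 was higher and 2 lower by 1.5-fold, where 4.48% of all measured genes were higher and 17.3% lower. Dock2, an exchange factor for Rac, had 128 CPM in db/db and 248 CPM in wt, a ratio of 0.514 (0.380 to 0.695). Of 5 measured transcription factors of myeloid oxidase genes, 0 were higher and 2 lower by 1.5-fold in neutrophils, beside the same 4.48% and 17.3%. Their median log2 ratio was -0.25, against -0.19 for all measured genes. Spi1, 1 of the 5, which encodes PU.1, had 860 CPM in db/db and 862 CPM in wt neutrophils. None of the 9 other NADPH oxidase enzymes and organisers reached 20 UMIs in neutrophils or monocytes.

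In monocytes, 2 of 6 measured genes of NADPH supply were higher by 1.5-fold and 0 lower, where 4.70% of all measured genes were higher and 6.34% lower. Idh1, which makes NADPH from isocitrate, had 107 CPM in db/db and 62.1 CPM in wt, and Me2, a malic enzyme, had 80.4 CPM in db/db and 44.9 CPM in wt. Of 7 measured oxidant users and removers, 2 were higher by 1.5-fold and 0 lower, beside the same 4.70% and 6.34% of all measured genes. Prdx5, a peroxiredoxin, had 1029 CPM in db/db and 528 CPM in wt, a ratio of 1.95 (1.73 to 2.21), and Txn1, thioredoxin, had 330 CPM in db/db and 193 CPM in wt. Receptors that trigger the oxidase were mixed. Fcgr3 had 318 CPM in db/db and 173 CPM in wt, while Fcgr1 had 33.9 CPM in db/db and 88.0 CPM in wt. Of 6 measured transcription factors of myeloid oxidase genes, 1 was higher by 1.5-fold and 0 lower, beside the same 4.70% and 6.34%. Only 2 of the 6 had a log2 ratio above 0, and their median was -0.085, against -0.041 for all measured genes. The 1 past the fold was Cebpa, with 103 CPM in db/db and 38.0 CPM in wt, a ratio of 2.72 (1.75 to 4.45). The monocyte class held more classical than nonclassical cells in db/db and fewer in wt, and the part of that mix in these values was not tested.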

How the data were processed

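The deposited matrices hold raw UMI counts per gene and barcode, which the authors made with Cell Ranger 3.0.2 on mm10 per the submitters' processing notes. How genes were annotated and cells called was not given in the sources. Groups came from the labelled genotype. Barcodes with 200 to 6000 genes and under 10% mitochondrial UMIs were kept. No doublet caller was run, and cells with at least 3 markers of another lineage were left out as an alternative.

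Clustering of both libraries at once, with no batch term, used scanpy 1.11.5 under Python 3.11.15 (pandas 2.3.3, numpy 2.4.6, scipy 1.17.1). Each cell was scaled to 10000 UMIs and log-transformed. The graph took 2000 variable genes per library less the 5 members, 30 principal components and 15 neighbours, and Leiden ran at resolution 1 (igraph 0.11.9, leidenalg 0.10.2). A class name required 3 or more of its markers among a cluster's 50 leading genes by fold (pseudocount 50 CPM), and was withheld when another class had more markers among the first 10. Naming thresholds were chosen with the data in view.

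CPM were computed from the UMI sums of each class in each library, with exact Poisson intervals. Ratios carry exact conditional binomial intervals, and shares of cells exact Clopper-Pearson intervals. Log2 ratios used CPM plus 10. A gene was measured with at least 20 UMIs over both libraries, and was past the fold at 1.5. Having 1 library per group, the study allows no test. The calculations were tested on simulated data.

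The members and lists were chosen with earlier results of these data known. The genes named are the members in every class, members of the fixed lists, and the 5 genes most alike each member among those reaching 50 CPM. B cell clusters and the interferon-led cluster were singled out after their values were seen. Some items of the lists are not reported here.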

Additional observations from a re-analysis of the deposited data

Results flagged for a closer look

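Some ratios of db/db over wt pointed one way in one cell class and the other way in another, each with an interval that left out 1. The difference between classes was not tested. For Cybb the log2 ratio was -0.25 in monocytes and -0.45 in the nonclassical cluster, against 0.19 in B cells. For Cyba it was 0.24 in neutrophils, 0.12 in B cells and 0.47 in the classical cluster, against -0.31 in the nonclassical cluster. For Ncf1 it was -0.16 in B cells and 0.55 in T cells, and the T cell intervals of the 2 libraries overlapped once cells with markers of several lineages were left out. For the sum of the 5 genes it was 0.17 in neutrophils, 0.064 in B cells and 0.27 in the classical cluster, against -0.16 in T cells and -0.36 in the nonclassical cluster. Outside haemoglobin the T cell sum was 854 CPM in db/db and 905 CPM in wt, with overlapping intervals.

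Subunit UMIs were also present in barcodes that the filters removed and that no comparison used. Barcodes with under 200 genes had 14.0 CPM of the 5 genes together in db/db and 26.6 CPM in wt. Barcodes over the mitochondrial limit had 615 CPM in db/db and 778 CPM in wt. The second kind numbered 374 in db/db and 1849 in wt, and held 2.76% of all subunit UMIs of the db/db library and 7.44% of those of the wt library.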

How the results depend on the processing

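All values here are log2 ratios of db/db over wt unless a unit is given, and the cause of each shift was not tested. Over 13 alternatives, 27 ratios whose interval left out 1 gave 351 values, of which 284 moved by less than their counting error, 38 moved further with the same sign, and 29 reversed. The 8 highest classes that were separated from the next class stayed above that same class in 104 of 104 values. This count did not compare them with the remaining classes. Ratios whose interval included 1 moved in 15 of 351 values. No paired analysis was possible because each group has 1 library.

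The B cell sum was -0.041 with a mitochondrial limit of 5% and -0.00076 at Leiden resolution 2, both reversed, 0.12 with a limit of 20% and 0.016 with at least 500 genes. The monocyte sum was -0.11 with classes from marker UMIs, -0.15 without cells of several lineages, -0.12 with equal weight per cell and 0.065 with TMM scaling. The neutrophil sum was 0.31 without cells of several lineages, 0.36 outside haemoglobin, 0.30 also outside mitochondrial, ribosomal protein and Gm42418 UMIs, and 0.48 with TMM. TMM put the median of all measured neutrophil genes at 0.08, against -0.19 with totals and -0.03 outside haemoglobin, and the 5 subunits lay above the median each time. The classical cluster sum was 0.14 with marker UMIs and 0.086 without cells of several lineages. The nonclassical sum was -0.25 with marker UMIs, -0.22 without cells of several lineages, -0.25 with the strictest denominator and -0.22 with TMM.

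Platelet and erythroid directions did not hold. In platelets Cyba was 0.080 with the 5% limit, 0.24 with the members among the variable genes, 0.45 without cells of several lineages, 0.28 outside haemoglobin, 0.14 with the strictest denominator and 0.83 with TMM. With at least 500 genes, platelet Cybb was 0.49, Ncf1 0.0081, Rac2 0.080 and the sum 0.096. Without cells of several lineages platelet Rac2 was 1.07 and the sum 0.36, with TMM Rac2 was 0.23 and the sum 0.42, and with equal weight per cell Rac2 was 0.44. In erythroid barcodes the 5% limit gave -0.78 for Cybb, -0.14 for Cyba, -0.50 for Rac2 and -0.82 for the sum. Classes from marker UMIs gave -0.29 for Cybb, -0.063 for Cyba, -0.31 for Rac2 and -0.55 for the sum. Leaving out cells of several lineages gave -0.45 for Cybb, -0.092 for Cyba, -0.31 for Rac2 and -0.69 for the sum.

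With no minimum of UMIs, 438 genes were higher and 1738 lower by 1.5-fold in neutrophils, against 183 higher and 706 lower. Unthinned, Cybb was seen in 4.78% of db/db and 7.32% of wt neutrophils, 95.9% of db/db and 92.7% of wt monocytes, and 40.4% of db/db and 34.8% of wt B cells. Neutrophil Cybb rests on 33 UMIs in db/db and 12 in wt. Ncf1 in T cells was 0.22 without cells of several lineages.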
